A study of Mus musculus with 12 samples.

Results

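The transcriptional response to activated Myc was measured in 3T9MycER fibroblasts given DMSO + OHT, set against the same cells given DMSO. The members were all genes that averaged 0.5 RPKM or more (reads scaled to gene length and library size) over these 4 libraries, 10941 of the 21591 genes of the table with usable values. A further 139 genes reached that level but were left out, because their decimal sign could not be put back with odds of 20 to 1. The series holds 12 RNA-seq libraries, 2 in each of 6 groups, and the other groups add verteporfin or Y27632 (Y27). It asks how Myc and YAP control entry into the cell cycle.

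Both groups carry the MycER transgene. 3T9MycER cells are an immortalized line of mouse embryonic fibroblasts that express MycER, a fusion of Myc with the ligand-binding region of the estrogen receptor, and OHT (4-hydroxytamoxifen) is the ligand that switches the fusion on. DMSO + OHT cells received OHT in solvent and DMSO cells the solvent alone. The labels give a treatment time for the inhibitors only, and the paper gives a range of OHT doses for these cells, so the dose and duration of OHT in these libraries are not known here. The design text speaks of quiescent, confluent cells and the paper of serum-starved subconfluent ones, which leaves the culture state unsettled. The groups come from 1 cell line, and no cells without MycER received OHT, so effects of OHT itself and of the activated fusion cannot be told apart. Nothing says that the 2 libraries of a group came from separate cultures, and p-values therefore measure the spread between these libraries only, which may be technical.

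Myc is a transcription factor that pairs with Max and binds E-boxes, short DNA motifs common in the promoters of active genes. It is best known for raising genes that make ribosomes, nucleotides and the DNA replication machinery when resting cells enter the cell cycle. It also lowers a smaller set of genes, its own gene among them. When OHT is absent, chaperones hold the MycER fusion inactive.

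Library totals were 23796550 and 28878041 reads in DMSO + OHT and 26771313 and 28288317 reads in DMSO. Genes received 36.0% and 34.2% of reads in DMSO + OHT, against 33.9% and 31.7% in DMSO. Across genes, which are not independent of each other, the 2 libraries of a group correlated at 0.992 in DMSO + OHT and 0.994 in DMSO. Their differences exceeded the noise of read sampling (chi-square per gene 5.11 in DMSO + OHT and 3.58 in DMSO). No gene of 1000 bases or more went above 1.77 reads per base, reached by Eef2, and the highest value was 1.73 to 1.77 in each of the 4 libraries. Changes of the 1038 genes that averaged 20 RPKM or more may therefore be compressed, or follow the library totals, which was not tested. Fibroblast markers summed to 349 and 305 RPKM in DMSO + OHT, against 341 and 331 RPKM in DMSO, while the 10 macrophage markers summed to between 2.88 and 3.70 RPKM per library, the 9 endothelial markers to between 0.538 and 1.16 RPKM and the 10 epithelial markers to at most 0.0797 RPKM. The 12 adipocyte and muscle markers summed to between 0.759 and 1.58 RPKM. At 0 in all 4 libraries were 5 epithelial markers, 3 adipocyte and muscle markers, and 1 marker each of macrophages and endothelium. RPKM is a share of a library, so fewer cells of a type and less RNA per cell cannot be told apart here, nor can a change in total RNA per cell be seen.

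More genes were called higher than lower after MycER activation, and most changes were modest. Of 10941 genes, 2333 were higher (21.3%) and 972 lower (8.88%) in DMSO + OHT than in DMSO at a limma adjusted p under 0.05, which is 30.2% in all. Among the called genes the median log2 change was 0.40 for rises and -0.38 for falls, which correspond to median ratios of group means of 1.39 and 0.696. A log2 change of at least 1 was seen in 81 of the rises and 4 of the falls. All log2 changes are on the scale log2(RPKM + 1), which understates the change of genes near or under 1 RPKM. Both DMSO + OHT libraries lay above both DMSO libraries in 40.9% of genes and below both in 24.2%.

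The balance between rises and falls depended on the scaling. Rises made up 70.6% of called genes with RPKM as deposited, 49.0% after median-ratio scaling (1838 higher, 1915 lower) and 48.3% after quantile normalization (2121 higher, 2274 lower), and the median log2 change of all genes was 0.056, -0.029 and -0.019 under these scalings. Of the 3305 called genes, 2809 kept their call and direction after median-ratio scaling, and 2921 did after quantile normalization. Without DMSO replicate 2 the counts were 1172 higher and 566 lower, without DMSO + OHT replicate 1 they were 1396 and 615, and without DMSO replicate 1 they were 2112 and 472.

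Calls depended on level. Among the 5355 genes at 5 to 20 RPKM, 28.4% rose and 7.26% fell. Among the 1038 genes at 20 RPKM or more, 14.1% rose and 1.45% fell, and among the 821 genes of 0.5 to 1 RPKM falls outnumbered rises, at 13.4% against 7.92%. A mean of 0.5 RPKM was reached only in DMSO + OHT by 90 genes, of which 46 were called higher, and only in DMSO by 111 genes, of which 48 were called lower. These entered the test through the group in which they were high. Of the genes named below, Dyrk3, Espl1 and Bhlhe41 are among the 90, and Arntl and Mertk among the 111.

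**Figure D1:**
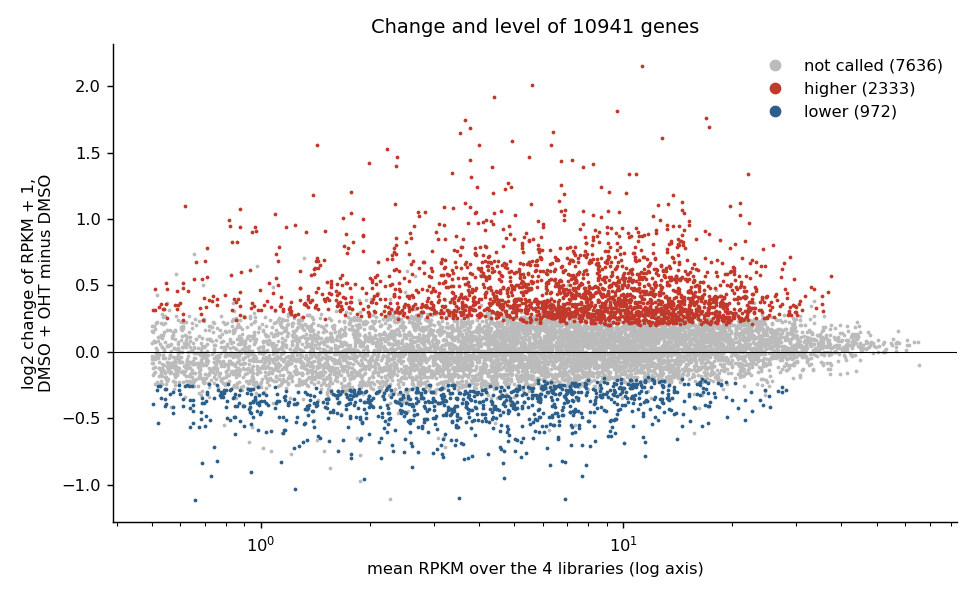
Log2 change of RPKM + 1 (DMSO + OHT minus DMSO, vertical axis) against mean RPKM over the 4 libraries (horizontal log axis), 1 point per gene, with 2333 genes called higher in red, 972 called lower in blue and the rest in grey. Rises reach further from 0 than falls, and the spread narrows above 20 RPKM.

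The 15 largest rises were in genes of varied function. Smpdl3b, which encodes a phosphodiesterase-like protein of lipid metabolism, had 19.3 and 18.7 RPKM in DMSO + OHT, against 3.65 and 3.34 RPKM in DMSO (log2 change 2.15, SE 0.09, limma adjusted p = 3.6e-08). Dgat2, the enzyme of the last step of triglyceride synthesis, had 9.89 and 9.18 RPKM in DMSO + OHT, against 1.96 and 1.30 RPKM in DMSO. St6galnac4, a sialyltransferase, had 16.7 and 14.3 RPKM in DMSO + OHT and 4.02 and 3.35 RPKM in DMSO. In each of these genes the groups lay far apart compared with the spread of their libraries.

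Genes that act in mitochondria, iron uptake and signalling followed. Mars2, the mitochondrial methionyl-tRNA synthetase, had 11.2 and 9.37 RPKM in DMSO + OHT, against 2.81 and 2.33 RPKM in DMSO. Top1mt, the mitochondrial DNA topoisomerase, had 9.98 and 9.92 RPKM in DMSO + OHT, against 2.66 and 2.76 RPKM in DMSO. Tfrc, the transferrin receptor that brings iron into cells, had 22.0 and 17.6 RPKM in DMSO + OHT, against 6.43 and 5.16 RPKM in DMSO. The ratio of means was thus 3.99 for Mars2, 3.67 for Top1mt and 3.42 for Tfrc. Rragb, a Rag GTPase that signals amino acids to mTOR, had 8.46 and 7.35 RPKM in DMSO + OHT, against 2.08 and 1.83 RPKM in DMSO.

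Regulators of chromatin and transcription were also among the 15 largest rises. Hmga1, an architectural protein of chromatin, had 30.03 and 23.8 RPKM in DMSO + OHT, against 8.49 and 6.76 RPKM in DMSO. Twist2, a basic helix-loop-helix repressor of mesenchymal cells, had 6.60 and 5.2 RPKM in DMSO + OHT, against 1.22 and 1.16 RPKM in DMSO. Dyrk3, a protein kinase, had the highest ratio of means of the 15, 11.5, with 144 and 139 reads in DMSO + OHT and 13 reads in each DMSO library. Its log2 change on the RPKM + 1 scale was 1.56. The other members of the 15 were Arhgdig, an inhibitor of small GTPases (log2 change 1.92), Ifrd2 (1.76), Reep6, which shapes the endoplasmic reticulum (1.75), Smoc1, a secreted matrix protein (1.69), and Srd5a1, a steroid reductase (1.56). All 15 had adjusted p of 2.4e-06 or less by limma.

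The 15 largest falls, also in genes of varied function, were smaller on the log2 scale. In simulated tables large falls were given back the wrong decimal sign more often than large rises of the same size, so the sizes and numbers of rises and falls should not be compared at face value. B3gnt9, a glycosyltransferase, had 4.34 and 3.69 RPKM in DMSO + OHT, against 10.2 and 9.38 RPKM in DMSO (log2 change -1.11, SE 0.10, limma adjusted p = 1.2e-05). Trp53inp2, which acts in autophagy, had 1.90 and 1.84 RPKM in DMSO + OHT, against 5.25 and 5.06 RPKM in DMSO. Ackr4, a scavenging receptor for chemokines, had 1.02 and 0.951 RPKM in DMSO + OHT, against 3.15 and 2.60 RPKM in DMSO. In each the groups lay apart, with ratios of means of 0.411, 0.363 and 0.344. Creb3l1, a membrane-bound transcription factor of secretory cells, had 1.46 and 1.65 RPKM in DMSO + OHT and 3.64 and 3.70 RPKM in DMSO.

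Myc itself was among the 15 largest falls, with 5.68 and 5.005 RPKM in DMSO + OHT, against 10.6 and 10.2 RPKM in DMSO (log2 change -0.85, SE 0.10, limma adjusted p = 8.2e-05). Reads of the endogenous gene and of the fusion, if any aligned there, were not told apart. Angptl7, a secreted angiopoietin-like protein, had 19 and 41 reads in DMSO + OHT and 87 and 110 reads in DMSO. The remaining falls included Ndrg4 (log2 change -0.95), the orphan receptor Gpr153 (-0.94), the GTPase regulator Arhgap18 (-0.85), the deubiquitinase Usp11 (-0.83), the membrane proteins Emp2 (-0.82) and Rftn2 (-0.81), Tnfaip2 (-0.83) and the microtubule protein Map1a (-0.80). The microRNA gene Mir2861 was listed too (-1.03), from 2 and 0 reads in DMSO + OHT and 3 and 6 reads in DMSO, and did not pass without DMSO replicate 2 (limma adjusted p = 0.14) or DMSO + OHT replicate 2 (0.063).

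**Figure D2:**
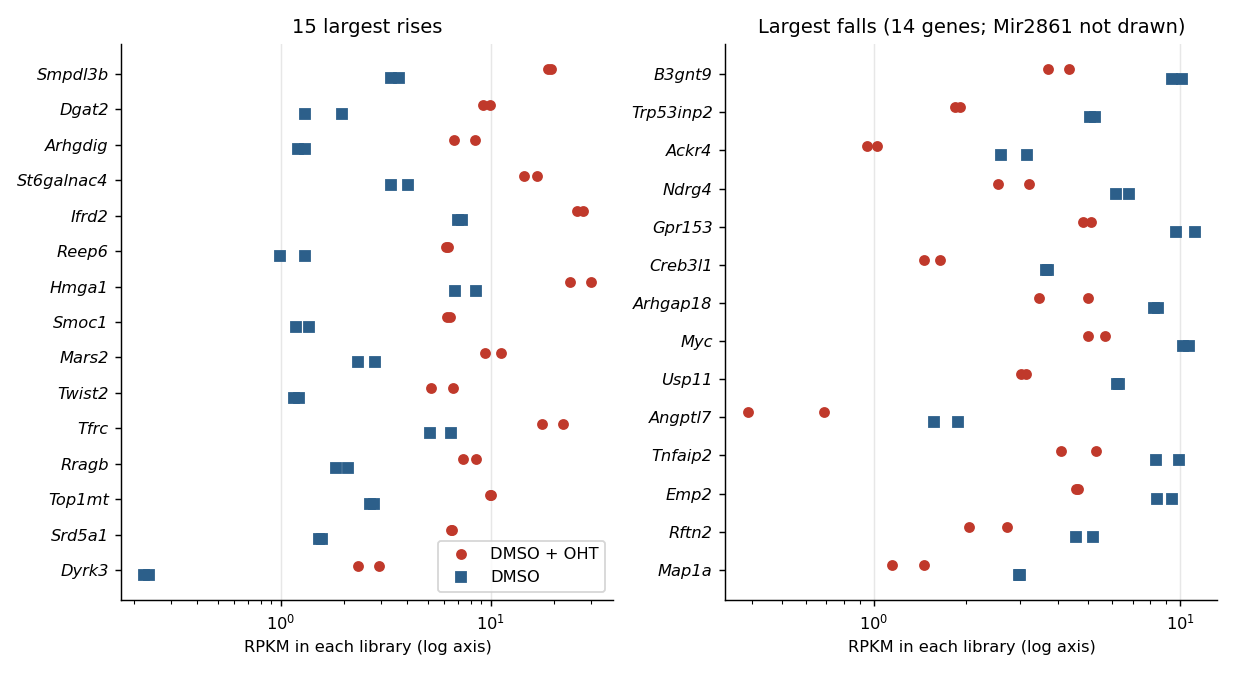
RPKM of each library on a log axis for the 15 largest rises (left) and 14 of the 15 largest falls (right, without Mir2861), DMSO + OHT as red circles and DMSO as blue squares. The groups do not overlap in any gene drawn, which the choice of these genes required.

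Because Myc binds E-boxes, the promoters of changed genes were searched for them. The windows ran from 250 bases before to 50 bases after each RefSeq transcription start on GRCm38.p6, and 8615 of the 10941 genes matched at least 1 window. The canonical E-box CACGTG reads the same on both strands. Shown are 5 of the largest rises with this motif in a window, to place the motif in responding promoters, with the motif in capitals. They were taken from called genes averaging 1 RPKM or more with no overlap between groups, with 1 window per gene.
Smpdl3b promoter, chr4:132757122-132757421, minus strand: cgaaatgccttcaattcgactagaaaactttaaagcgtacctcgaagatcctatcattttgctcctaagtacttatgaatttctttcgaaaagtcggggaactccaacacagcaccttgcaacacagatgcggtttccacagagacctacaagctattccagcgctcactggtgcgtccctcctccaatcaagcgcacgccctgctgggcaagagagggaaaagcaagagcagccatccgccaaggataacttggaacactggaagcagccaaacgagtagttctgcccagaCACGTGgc
Rragb promoter, chrX:153139708-153140007, plus strand: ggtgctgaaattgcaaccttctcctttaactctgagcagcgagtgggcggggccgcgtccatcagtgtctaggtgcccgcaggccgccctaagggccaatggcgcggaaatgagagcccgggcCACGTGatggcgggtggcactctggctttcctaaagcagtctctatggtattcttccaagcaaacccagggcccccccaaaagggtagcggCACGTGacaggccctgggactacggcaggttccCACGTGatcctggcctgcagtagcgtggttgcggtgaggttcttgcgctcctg
Dusp2 promoter, chr2:127335909-127336208, plus strand: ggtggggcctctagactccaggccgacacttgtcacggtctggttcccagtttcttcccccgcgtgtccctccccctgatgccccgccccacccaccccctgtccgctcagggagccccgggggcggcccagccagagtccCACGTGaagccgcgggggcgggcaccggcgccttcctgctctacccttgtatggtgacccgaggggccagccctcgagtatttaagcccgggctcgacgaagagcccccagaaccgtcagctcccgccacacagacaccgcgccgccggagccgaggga
Ica1 promoter, chr6:8778435-8778734, minus strand: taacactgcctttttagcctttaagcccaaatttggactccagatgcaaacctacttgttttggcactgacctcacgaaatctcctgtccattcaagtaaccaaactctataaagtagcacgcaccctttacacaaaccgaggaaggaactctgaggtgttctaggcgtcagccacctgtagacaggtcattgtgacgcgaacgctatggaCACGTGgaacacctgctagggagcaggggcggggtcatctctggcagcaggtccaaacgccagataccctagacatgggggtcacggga
Ifi30 promoter, chr8:70766614-70766913, minus strand: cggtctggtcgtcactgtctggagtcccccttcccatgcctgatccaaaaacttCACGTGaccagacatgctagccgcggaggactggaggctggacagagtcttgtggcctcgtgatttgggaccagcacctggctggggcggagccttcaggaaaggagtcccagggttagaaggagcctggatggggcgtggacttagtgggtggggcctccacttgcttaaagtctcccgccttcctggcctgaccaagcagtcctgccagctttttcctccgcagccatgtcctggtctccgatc
The motif stood once in 4 of these windows and 3 times in that of Rragb, where its first bases lay at -127, -36 and -3 relative to the start. It began at -109 in Dusp2, at -39 in Ica1, at -196 in Ifi30 and at 43, inside the transcript, in Smpdl3b. Ica1, an islet autoantigen, had 5.98 and 6.02 RPKM in DMSO + OHT, against 1.45 and 1.69 RPKM in DMSO. Ifi30, a lysosomal thiol reductase, had 7.71 and 5.79 RPKM in DMSO + OHT, against 1.71 and 2.16 RPKM in DMSO. Dusp2, a phosphatase of MAP kinases, had 4.39 and 3.53 RPKM in DMSO + OHT, against 0.831 and 0.743 RPKM in DMSO.

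E-boxes were more frequent in windows of genes that rose. The motif CACGTG was found in 13.5% of 2319 windows of genes called higher, 7.78% of 1016 windows of genes called lower and 9.51% of 7655 windows of genes not called. A gene can have several windows, which may overlap. Counted by gene, the shares were 15.1% of 1906 genes called higher, 9.99% of 741 called lower and 11.4% of 5968 not called. The share was 10.2% over all genes tested and 7.15% over all 32851 windows, which include genes not tested. Among the 77 windows of genes called higher with a log2 change of 1 or more the share was 18.2%, from 14 windows. The variant E-box CACGCG, searched on both strands as CACGCG or CGCGTG, was in 25.2% of windows of genes called higher, 13.1% of those called lower and 16.2% of those not called. Its share was 17.8% over all genes tested and 9.27% over all windows. The median window held 23 CG dinucleotides in genes called higher, 17 in genes called lower, 21 in genes not called and 7 over all windows, and the part of base composition in these shares was not tested. A motif match is a description of the letters and not a binding site.

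**Figure D3:**
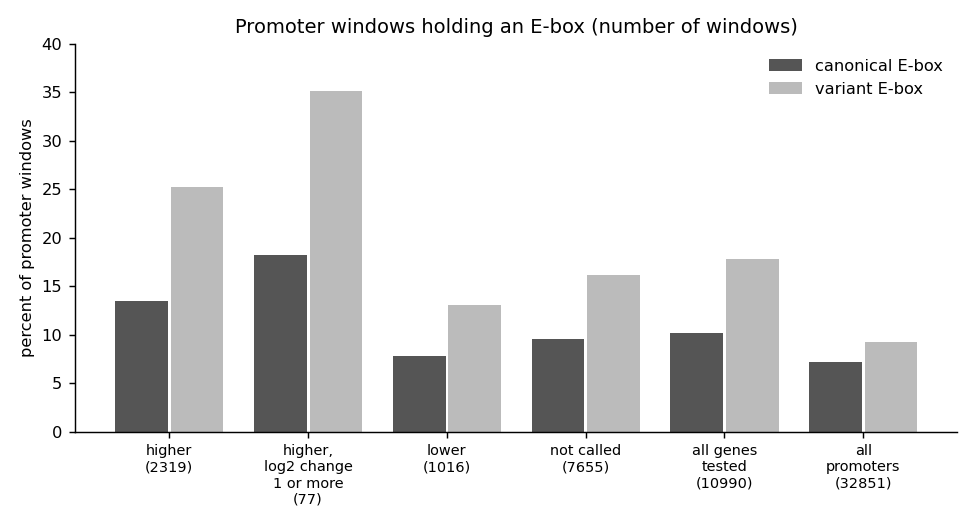
Percent of promoter windows that hold the canonical E-box (dark bars) or the variant E-box (light bars), with the number of windows under each group. Windows of genes called higher show 13.5% and 25.2%, and those of genes called lower 7.78% and 13.1%.

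Ribosome assembly factors had some of the highest shares of rises among the lists. Factors of the small subunit processome, the complex that folds and cuts the precursor of the small ribosomal RNA, were higher in 40 of 45 tested genes, against 21.3% of all genes, with a median log2 change of 0.53, against 0.06 over all genes. Large subunit assembly factors were higher in 46 of 50 (median 0.52), and snoRNP and nucleolar proteins in 21 of 24 (median 0.55), and in none of these lists was a member called lower. Rrp9, a processome protein that binds the U3 snoRNA, had 35.3 and 28.7 RPKM in DMSO + OHT, against 13.1 and 11.04 RPKM in DMSO (log2 change 1.34, SE 0.10, limma adjusted p = 4.1e-06). Dhx37, a helicase of the same complex, had 7.05 and 6.08 RPKM in DMSO + OHT, against 2.86 and 2.40 RPKM in DMSO. Heatr1 (log2 change 0.93) and Mphosph10 (0.93) rose as well. Of the members of these lists without a call, every processome and large subunit member still had a log2 change above 0, the lowest being 0.002 and 0.15.

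The nucleolar genes moved by similar amounts. Shq1, an assembly factor of H/ACA snoRNPs, had 5.22 and 4.25 RPKM in DMSO + OHT, against 1.69 and 1.68 RPKM in DMSO. Rrp1b, a nucleolar factor of the large subunit, had 9.98 and 8.91 RPKM in DMSO + OHT, against 4.52 and 3.53 RPKM in DMSO. Tcof1, which is needed for ribosomal RNA transcription, had 7.33 and 5.90 RPKM in DMSO + OHT, against 3.07 and 3.12 RPKM in DMSO. In all of these the libraries of the groups were well separated. Wdr12 (log2 change 0.87), Lyar (0.82), Las1l (0.80), Ncl (0.91) and Nolc1 (0.77) rose too. Npm1, nucleophosmin, had 48.2 and 41.6 RPKM in DMSO + OHT and 42.0 and 39.4 RPKM in DMSO, which overlap, and did not pass (limma adjusted p = 0.39), at a level where changes may be compressed.

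RNA polymerase I and its factors rose in 10 of 15 tested genes (median log2 change 0.42), against 21.3% of all genes. RNA polymerase III genes rose in 7 of 20 (35%, median 0.19), and no member of either list was called lower. Polr1b, the second largest subunit of polymerase I, had 18.7 and 16.1 RPKM in DMSO + OHT, against 8.09 and 6.99 RPKM in DMSO. Taf1c, of the promoter selectivity factor of polymerase I, had 5.95 and 5.17 RPKM in DMSO + OHT, against 2.78 and 2.80 RPKM in DMSO. Polr1e (log2 change 0.96) and Cd3eap (0.83) rose with them. Among polymerase III subunits Polr3e had 7.99 and 7.54 RPKM in DMSO + OHT, against 4.94 and 4.58 RPKM in DMSO (log2 change 0.61). The polymerase III count was 2 without DMSO replicate 2, where Polr3b (limma adjusted p = 0.09) and Gtf3c4 (0.061) no longer passed. Polr3g was among the genes whose decimal sign was unsettled.

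Cytosolic ribosomal protein genes behaved differently from the factors that assemble them. Only Rps24 and Rps15a of 39 tested were called higher, against 21.3% of all genes, and the median log2 change was 0.09, with -0.01 after median-ratio scaling. All 39 had a log2 change above 0, from 0.02 to 0.30. Without DMSO + OHT replicate 1, which had the smallest read total of these libraries, the median was -0.03. If reads of these genes are capped, their RPKM becomes lower as the library total grows. The common sign may therefore follow the totals, which was not tested. Both calls were lost on leaving out DMSO replicate 2 or DMSO + OHT replicate 1 (limma adjusted p from 0.062 to 0.20) and under both other scalings, Rps24 also without DMSO replicate 1 (0.053) and Rps15a without DMSO + OHT replicate 2 (0.10). The list summed to 1545 and 1317 RPKM in DMSO + OHT, against 1377 and 1300 RPKM in DMSO, and 32 of the 39 had a mean of 20 RPKM or more, where changes may be compressed. Host genes of snoRNAs had 1 rise among 11 tested (median 0.05, and -0.04 and -0.07 under the other scalings). It was 9430008C03Rik, whose call was lost without DMSO replicate 2 (0.19) and without either DMSO + OHT library (0.11 each).

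Translation factors were higher in 17 of 39 genes (median log2 change 0.24), against 21.3% of all genes. Aminoacyl-tRNA synthetases were higher in 10 of 22 (median 0.20), and no member of either list was called lower. Eif4e, which binds the mRNA cap, had 22.3 and 19.2 RPKM in DMSO + OHT, against 13.7 and 12.9 RPKM in DMSO. Eef1e1, of the multisynthetase complex, had 19.7 and 18.2 RPKM in DMSO + OHT, against 10.8 and 9.65 RPKM in DMSO. Farsb, a subunit of phenylalanyl-tRNA synthetase, had 11.2 and 10.1 RPKM in DMSO + OHT and 6.31 and 6.09 RPKM in DMSO. Its partner Farsa (log2 change 0.54) and Vars (0.49) and Hars (0.48) also passed. The counts fell to 9 and 5 without DMSO replicate 2, and to 9 and 5 without DMSO + OHT replicate 1.

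Mitochondrial import and translation genes were higher in 20 of 28 cases (median log2 change 0.42) and mitochondrial ribosomal proteins in 28 of 44 (median 0.31). Respiratory chain subunits were higher in 5 of 39 (12.8%, median 0.15), under the 21.3% of all genes. The differences between these lists were not tested. Timm8a1, a chaperone of the intermembrane space, had 29.1 and 25.4 RPKM in DMSO + OHT, against 13.4 and 11 RPKM in DMSO. Mrpl22, a protein of the large mitochondrial ribosomal subunit, had 21.4 and 18.9 RPKM in DMSO + OHT, against 10.1 and 8.46 RPKM in DMSO. Mrpl16 (log2 change 0.95), Tfb2m, a mitochondrial transcription factor (0.77), Timm9 (0.79) and Timm50 (0.64) rose with them. The mitochondrial ribosomal count became 9 without DMSO replicate 2, and 18 when DMSO + OHT replicate 1 was left out. Of the respiratory chain Cycs had a log2 change of 0.35 and Ndufa10 of 0.27, and without either of the same libraries 0 of 39 passed, Cycs having limma adjusted p = 0.054 and 0.081 and Ndufa10 0.12 and 0.18, while 9 passed without DMSO + OHT replicate 2. Of the 39 respiratory chain subunits 18 had a mean of 20 RPKM or more.

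Enzymes that make nucleotides rose in most cases. Purine synthesis genes were higher in 11 of 16 (median log2 change 0.43), against 21.3% of all genes. Genes of pyrimidine and deoxynucleotide synthesis were higher in 10 of 17 (median 0.31), and no member of either list was called lower. Ppat, which commits the pathway to purines, had 17.6 and 16.8 RPKM in DMSO + OHT, against 8.67 and 7.58 RPKM in DMSO. Gart, a multifunctional purine enzyme, had 19.01 and 16.5 RPKM in DMSO + OHT, against 10.8 and 10.6 RPKM in DMSO. Pfas (log2 change 1.12) and Prps2 (0.69) rose as well. Among pyrimidine genes Cad, the enzyme of the first steps, had 20.1 and 17.7 RPKM in DMSO + OHT, against 10.5 and 10.2 RPKM in DMSO, and Dctpp1, which removes modified nucleotides, had 20.9 and 19.2 RPKM in DMSO + OHT, against 9.53 and 8.57 RPKM in DMSO. Umps, the last enzyme of UMP synthesis, had a log2 change of 0.79 and Dhodh of 0.53.

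Serine, one-carbon and polyamine genes gave 13 rises and 2 falls among 25 (median log2 change 0.28). These shares were 52% and 8%, against 21.3% and 8.88% of all genes. Mthfd1l, the mitochondrial enzyme that releases formate, had 12.05 and 10.02 RPKM in DMSO + OHT, against 4.001 and 2.86 RPKM in DMSO (log2 change 1.45, SE 0.12, limma adjusted p = 9.7e-06). Slc19a1, the reduced folate carrier, had 9.82 and 9.09 RPKM in DMSO + OHT, against 4.58 and 3.93 RPKM in DMSO. Shmt2, which moves carbon from serine into the mitochondrial folate pool, had 30.2 and 25.9 RPKM in DMSO + OHT, against 16.5 and 14.1 RPKM in DMSO. In these 3 genes the groups did not overlap. Among the falls Sat1, which degrades polyamines, had a log2 change of -0.35 and did not pass without DMSO replicate 1 (limma adjusted p = 0.083) or DMSO + OHT replicate 1 (0.066). The list had 0 falls without either of these libraries. Odc1, the first enzyme of polyamine synthesis and a well known Myc target, had 34.0 and 28.1 RPKM in DMSO + OHT and 29.3 and 25.5 RPKM in DMSO, which overlap (log2 change 0.17, limma adjusted p = 0.23). Its change may be compressed at this level.

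Amino acid transporters and related genes were higher in 11 of 16 (median log2 change 0.39) and fatty acid and cholesterol synthesis genes in 10 of 27 (median 0.18), and none was called lower. Glycolysis genes were higher in 5 of 19, which is 26.3%, near the 21.3% of all genes (median 0.18, and 0.08 after median-ratio scaling). The largest rise of that list was 9630033F20Rik, or Tigar (log2 change 0.79), which is also on the list of p53 targets. Slc1a5, the glutamine transporter, had 16.3 and 13.4 RPKM in DMSO + OHT, against 8.19 and 7.13 RPKM in DMSO. Slc16a1, a lactate transporter, had 22.0 and 18.7 RPKM in DMSO + OHT, against 11.03 and 9.03 RPKM in DMSO. Slc7a1 (log2 change 0.62) and the glutaminase Gls2 (0.79) rose too. Hk2, hexokinase of growing cells, had 10.00 and 8.90 RPKM in DMSO + OHT, against 6.31 and 4.84 RPKM in DMSO. Fasn, fatty acid synthase, had 32.7 and 26.4 RPKM in DMSO + OHT, against 19.05 and 17.7 RPKM in DMSO. Transporter counts were 7 without DMSO replicate 2 or DMSO + OHT replicate 1, the lipid count was 5 without either of these and 18 without DMSO + OHT replicate 2, and the glycolysis count was 10 without the last.

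G1 cyclins, kinases and E2F genes were higher in 13 of 22 (median log2 change 0.42), against 21.3% of all genes. DNA replication genes were higher in 32 of 50 (median 0.32). Mitosis and G2/M genes, with 4 of 32 higher (12.5%), lay under the share of all genes, and 1 was lower. Their median was 0.07, and -0.01 after median-ratio scaling. The differences between these lists were not tested. Ccne1, cyclin E1, had 4.73 and 3.66 RPKM in DMSO + OHT, against 1.64 and 1.36 RPKM in DMSO. Uhrf1, which maintains DNA methylation behind the fork, had 6.30 and 4.74 RPKM in DMSO + OHT, against 2.22 and 1.86 RPKM in DMSO. Dbf4, the activator of the kinase that fires origins, had 3.60 and 3.29 RPKM in DMSO + OHT, against 1.61 and 1.73 RPKM in DMSO. Mcm3 (log2 change 0.73), Rpa2 (0.77), Ccne2 (0.69), Cdk6 (0.66), Skp2 (0.53) and Ccnd2 (0.46) were higher as well.

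Ccnd1, cyclin D1, had 24.8 and 20.96 RPKM in DMSO + OHT and 20.8 and 17.96 RPKM in DMSO, and did not pass (limma adjusted p = 0.10). Nor did Cdk4, with 50.8 and 44.8 RPKM in DMSO + OHT and 41.2 and 39.97 RPKM in DMSO (limma adjusted p = 0.13). Changes of both may be compressed at these levels. Among mitotic genes Espl1, separase, had 0.842 and 0.829 RPKM in DMSO + OHT, against 0.352 and 0.328 RPKM in DMSO. Ccna2 (log2 change 0.37), Cdk1 (0.37) and Cdc20 (0.32) passed only while DMSO replicate 2 and DMSO + OHT replicate 1 were in the fit, with limma adjusted p from 0.10 to 0.31 without either, and Cdc20 was also lost without DMSO replicate 1 (0.076). Anln, anillin, had 7.17 and 4.30 RPKM in DMSO + OHT and 8.79 and 8.49 RPKM in DMSO (log2 change -0.55), and passed only with both DMSO libraries and DMSO + OHT replicate 2. The count of DNA replication genes became 19 without DMSO replicate 2, and 20 when DMSO + OHT replicate 1 was left out.

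Of the CDK inhibitors, 4 of 7 were tested and 1 was lower (25%, against 8.88% of all genes). This was Cdkn2c, which binds Cdk4 and Cdk6, with 5.05 and 4.87 RPKM in DMSO + OHT, against 6.95 and 6.22 RPKM in DMSO (log2 change -0.35, limma adjusted p = 0.0098). It did not pass without DMSO replicate 1 (0.091) or DMSO + OHT replicate 2 (0.05). Cdkn1b, p27, had 12.8 and 13.7 RPKM in DMSO + OHT and 15.2 and 15.2 RPKM in DMSO (0.063). Cdkn2b (log2 change -0.18) and Cdkn2a (0.09) overlapped between groups. Cdkn1a, p21, lay below the minimum, with 0.266 and 0.156 RPKM in DMSO + OHT and 0.674 and 0.574 RPKM in DMSO, and was not tested.

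Chaperones were higher in 14 of 25 genes (median log2 change 0.29), against 21.3% of all genes. Nuclear transport genes were higher in 38 of 43 (median 0.42) and splicing and hnRNP genes in 19 of 40 (median 0.23). No member of these lists was called lower. Nup205, a scaffold of the nuclear pore, had 15.4 and 13.9 RPKM in DMSO + OHT, against 8.01 and 7.09 RPKM in DMSO. Prmt5, the arginine methyltransferase that modifies Sm proteins, had 17.6 and 15.9 RPKM in DMSO + OHT, against 9.84 and 9.28 RPKM in DMSO. Fkbp4, a co-chaperone of Hsp90, had 38.6 and 32.3 RPKM in DMSO + OHT, against 24.98 and 22.7 RPKM in DMSO. Nup85 (log2 change 0.85), Nup107 (0.69), Dnajc2 (0.62) and Prpf4 (0.59) rose too. Without DMSO replicate 2 the counts were 6, 25 and 7, and without DMSO + OHT replicate 1 they were 8, 26 and 9.

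**Figure D4:**
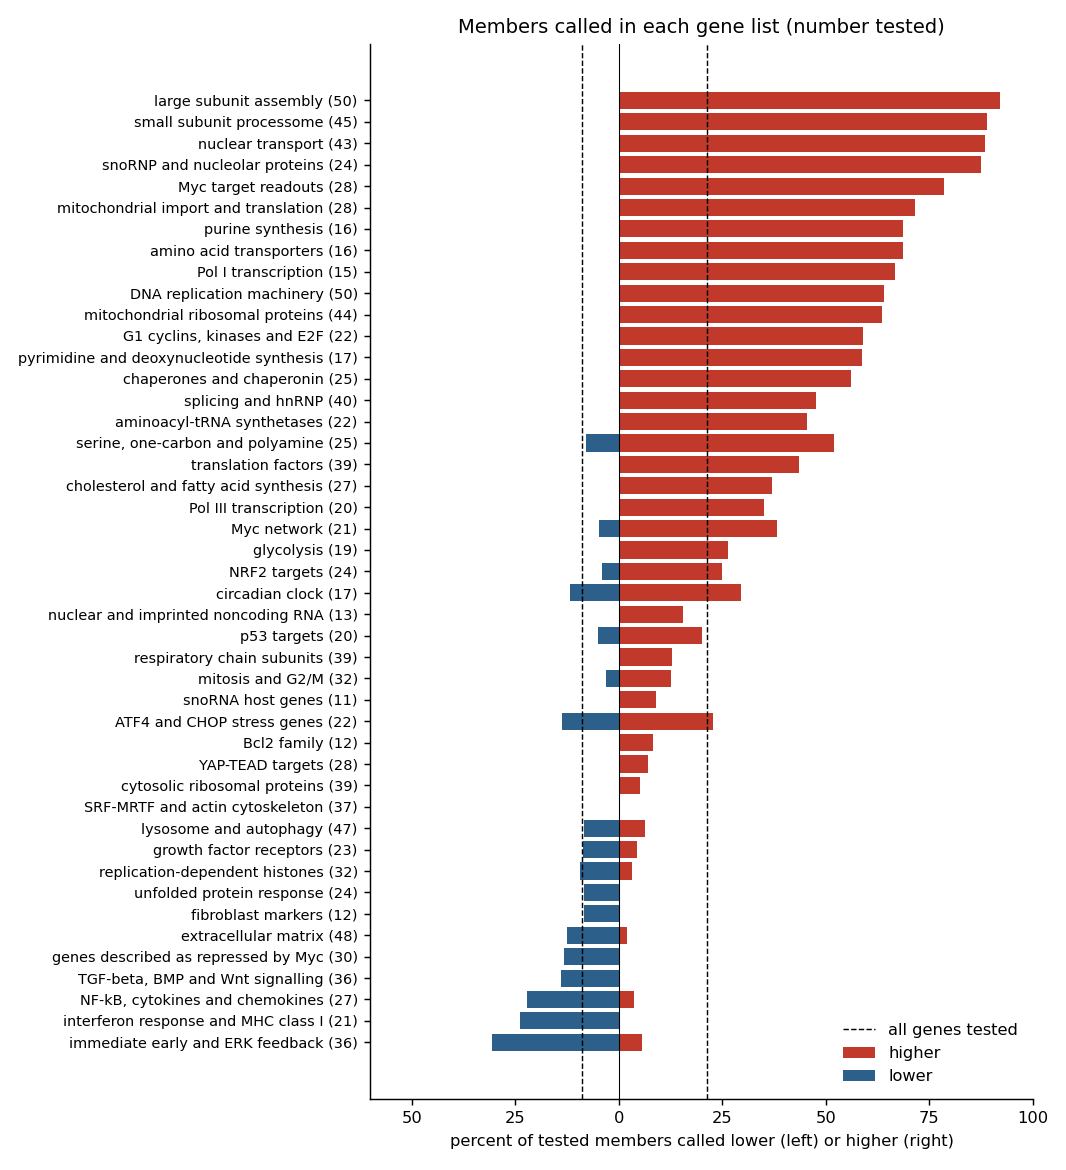
Percent of tested members called higher (red, to the right) or lower (blue, to the left) in 45 gene lists with at least 10 tested members, whose number stands in brackets. Dashed lines mark 21.3% higher and 8.88% lower over all genes, and 15 lists have more than 50% of members higher, those of ribosome production, nuclear transport and nucleotide synthesis among them.

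Within the Myc network itself 8 of 21 tested genes were higher (38.1%, against 21.3% of all genes) and Myc was lower (median log2 change 0.18). Mxi1, a Max partner that opposes Myc, had 11.04 and 10.1 RPKM in DMSO + OHT, against 6.63 and 5.98 RPKM in DMSO. Ruvbl1, a helicase-like cofactor of Myc, had 23.9 and 21.4 RPKM in DMSO + OHT, against 14.4 and 13.0 RPKM in DMSO, and its partner Ruvbl2 and the cofactor Wdr5 had log2 changes of 0.66 and 0.45. Max had 17.2 and 16.2 RPKM in DMSO + OHT, against 14.5 and 12.8 RPKM in DMSO (log2 change 0.27), and did not pass without DMSO replicate 2 (limma adjusted p = 0.16) or DMSO + OHT replicate 1 (0.11). Mnt, another Max partner, lay apart between groups without passing (log2 change 0.22, 0.12), and Mxd4 overlapped (0.01). Mycn was listed at 0 in all 4 libraries. Without DMSO replicate 2 the count of rises was 5. Common Myc target readouts were higher in 22 of 28 (median 0.46), a list that shares Ifrd2, Hmga1, Tfrc and Polr1b with the genes above.

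Genes described as repressed by Myc showed few calls. Of 30 tested, 4 were lower (13.3%, against 8.88% of all genes) and none was higher, against 21.3% of all genes. The median log2 change was -0.09, and the count of falls was 11 after median-ratio scaling and 17 after quantile normalization. Of the 30, 12 had a mean of 20 RPKM or more, where changes may be compressed. Pdgfra, the receptor for platelet-derived growth factor A, had 4.52 and 6.12 RPKM in DMSO + OHT, against 8.00 and 8.02 RPKM in DMSO. Klf4, a transcription factor of resting cells, had 0.663 and 0.603 RPKM in DMSO + OHT, against 1.399 and 1.10 RPKM in DMSO. Gadd45a, a growth arrest gene, had 6.04 and 5.21 RPKM in DMSO + OHT, against 8.36 and 6.61 RPKM in DMSO. The fourth called was Cdkn2c. Without DMSO replicate 1 only 1 of the 4 passed, Klf4 having limma adjusted p = 0.059, Gadd45a 0.28 and Cdkn2c 0.091. Without DMSO + OHT replicate 2 the count was 2, Gadd45a having 0.16, and without DMSO + OHT replicate 1 it was 6.

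Immediate early genes and genes of ERK feedback had 11 of 36 tested members lower (30.6%, against 8.88% of all genes), 2 higher and a median log2 change of -0.25. Egr1, an early transcription factor of the growth factor response, had 1.83 and 1.65 RPKM in DMSO + OHT, against 3.78 and 3.19 RPKM in DMSO (log2 change -0.71, SE 0.10, limma adjusted p = 0.00032). Nr4a1, an orphan nuclear receptor, had 3.39 and 1.76 RPKM in DMSO + OHT and 5.13 and 4.20 RPKM in DMSO. Jund, an AP-1 subunit, had 15.3 and 9.71 RPKM in DMSO + OHT and 19.99 and 16.1 RPKM in DMSO. For Nr4a1 and Jund the libraries within a group differed widely. The falls of Nr4a1, Maff and Jund did not pass without DMSO replicate 1 (limma adjusted p = 0.058, 0.22 and 0.17), those of Maff and Jund also without DMSO + OHT replicate 2 (0.22 and 0.17), and the count without DMSO replicate 1 was 3, against 6 without DMSO + OHT replicate 2 and 21 under either other scaling.

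Fos had 1.24 and 1.19 RPKM in DMSO + OHT and 2.27 and 1.42 RPKM in DMSO, and stood at the threshold without passing (log2 change -0.34, limma adjusted p = 0.05). Dusp2 moved against the list, with a ratio of means of 5.03 (log2 change 1.47), and Klf10 rose by 0.40 on the log2 scale, a call lost without DMSO replicate 2 (0.15) or DMSO + OHT replicate 1 (0.089).

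Among 17 clock genes 5 were higher and 2 lower, 29.4% and 11.8%, against 21.3% and 8.88% of all genes (median log2 change 0.13, and 0.03 after median-ratio scaling). The shares lay near those of all genes, and the results here are those of single genes. Nr1d1, the repressor Rev-erb alpha, had 6.46 and 5.46 RPKM in DMSO + OHT, against 1.78 and 2.11 RPKM in DMSO (log2 change 1.24, SE 0.11, limma adjusted p = 1.1e-05). Dbp, an output factor of the clock, had 4.36 and 3.65 RPKM in DMSO + OHT, against 1.54 and 1.29 RPKM in DMSO. Nr1d2, Rev-erb beta, had 13.5 and 13.7 RPKM in DMSO + OHT, against 7.89 and 7.57 RPKM in DMSO. These rose while Arntl, the activator Bmal1 that Rev-erb proteins repress, had 0.255 and 0.379 RPKM in DMSO + OHT, against 1.28 and 1.05 RPKM in DMSO, a ratio of means of 0.271. Nfil3, a repressor of Dbp targets, had 3.57 and 2.92 RPKM in DMSO + OHT, against 6.94 and 5.35 RPKM in DMSO. Clock had 8.25 and 8.55 RPKM in DMSO + OHT and 7.97 and 7.75 RPKM in DMSO (limma adjusted p = 0.40), and Per1 (log2 change -0.22), Per2 (-0.20), Cry1 (0.28) and Cry2 (0.01) did not pass. Bhlhe41 had a log2 change of 0.55, lost without DMSO replicate 2 (0.063).

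**Figure D5:**
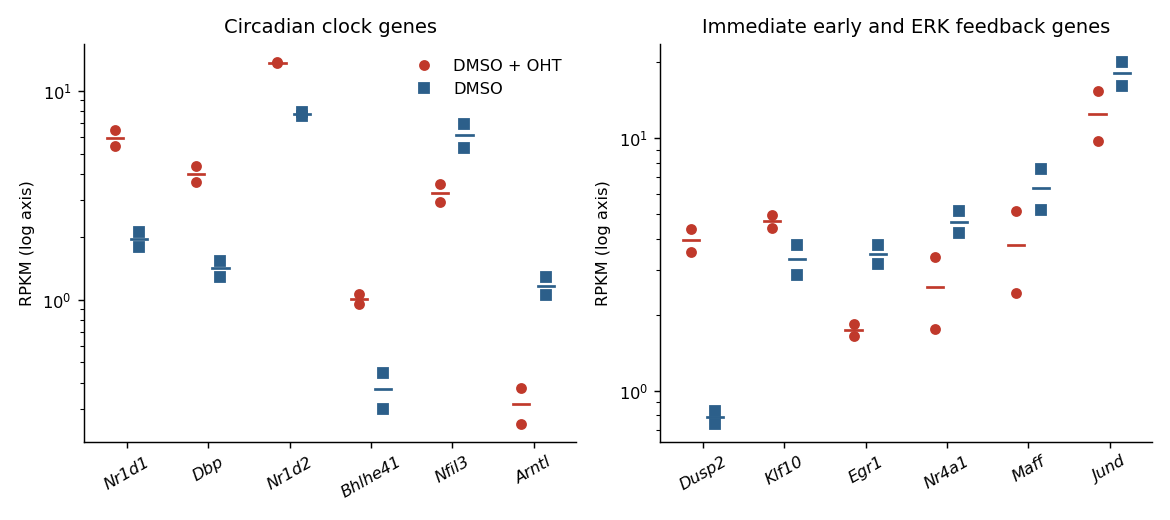
RPKM of each library on a log axis for named clock genes (left) and immediate early and ERK feedback genes (right), with DMSO + OHT as red circles, DMSO as blue squares and a bar at each mean of 2 libraries. Nr1d1, Dbp and Nr1d2 lie higher and Arntl and Nfil3 lower in DMSO + OHT, and the 2 DMSO + OHT libraries lie far apart for Nr4a1, Maff and Jund.

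Inflammatory and interferon genes were more often called lower than higher. NF-kB, cytokine and chemokine genes were lower in 6 of 27 (22.2%) and higher in 1 (median log2 change -0.13). Interferon response and MHC class I genes were lower in 5 of 21 (23.8%) and higher in none (median -0.14), while 18 members lay below the minimum. Over all genes 8.88% were lower and 21.3% higher. Falls were more common at low level, at 13.4% of genes of 0.5 to 1 RPKM and 12.3% of genes of 1 to 5 RPKM. Ddx58, the RNA sensor RIG-I, had 2.48 and 3.08 RPKM in DMSO + OHT, against 4.42 and 4.22 RPKM in DMSO. Igtp, an interferon-inducible GTPase, had 0.395 and 0.787 RPKM in DMSO + OHT, against 1.42 and 1.33 RPKM in DMSO. Nfkbiz, an inducible regulator of NF-kB, had 2.26 and 1.84 RPKM in DMSO + OHT, against 3.48 and 3.03 RPKM in DMSO. Of the 21 interferon and MHC genes, 11 were lower in both DMSO + OHT libraries than in both DMSO libraries (24.2% of all genes were) and 4 had a log2 change above 0, the highest being 0.07. Irf1 (log2 change 0.02) and B2m (-0.02) did not pass. Sod2, mitochondrial superoxide dismutase, rose (log2 change 0.60), and Ptgs2 (-0.45) did not pass without DMSO replicate 1 (limma adjusted p = 0.25) or DMSO + OHT replicate 2 (0.18). The NF-kB count of falls was 3 without DMSO replicate 1 and 11 and 12 under the other scalings, and the interferon count was 3 without DMSO + OHT replicate 1 and 9 and 10 under those scalings.

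ATF4 and CHOP stress genes were called about as often as other genes. They gave 5 rises and 3 falls among 22, 22.7% and 13.6%, against 21.3% and 8.88% of all genes (median log2 change -0.05). Asns, asparagine synthetase, had 23.8 and 19.9 RPKM in DMSO + OHT, against 15.3 and 13.4 RPKM in DMSO, and Cth, of cysteine synthesis, had 4.36 and 4.15 RPKM in DMSO + OHT, against 1.72 and 2.12 RPKM in DMSO. Trib3 and Chac1, which respond to CHOP, had log2 changes of -0.66 and -0.59, and neither passed without DMSO replicate 1 (limma adjusted p = 0.078 and 0.12), nor Chac1 without DMSO + OHT replicate 2 (0.096). The falls were 1 in number without DMSO replicate 1, but 6 if DMSO + OHT replicate 1 was omitted, and the median was above 0 without DMSO replicate 1 (0.03) or DMSO + OHT replicate 2 (0.05). Psat1, of serine synthesis, rose as well (0.51).

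NRF2 targets gave 6 rises and 1 fall among 24 (25% higher, against 21.3% of all genes), with a median log2 change of 0.10 that lay at -0.001 after median-ratio scaling and -0.04 after quantile normalization. Gsr, glutathione reductase, had 16.95 and 14.0 RPKM in DMSO + OHT, against 8.33 and 7.42 RPKM in DMSO, and Gclc, of glutathione synthesis, had 13.5 and 12.1 RPKM in DMSO + OHT, against 7.55 and 5.64 RPKM in DMSO. Nqo1, a quinone reductase on the same list, went the other way, with 1.54 and 1.18 RPKM in DMSO + OHT, against 2.74 and 2.51 RPKM in DMSO. Members of this list thus did not move together. Genes of the unfolded protein response had no rise, against 21.3% of all genes. There were 2 falls among 24 (8.33% lower, near the 8.88% of all genes, median 0.00). Of the 24, 14 had a mean of 20 RPKM or more, where changes may be compressed. The falls were Xbp1 at -0.40 and Creld2 at -0.37, and the other scalings gave 6 and 9 falls. Creld2 did not pass without DMSO replicate 1 (limma adjusted p = 0.11) or DMSO + OHT replicate 2 (0.14).

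Of 20 p53 targets 4 rose and 1 fell (20% higher, against 21.3% of all genes, median log2 change 0.03, and below 0 under both other scalings). Aen, a nuclease induced by p53, had 13.1 and 11.3 RPKM in DMSO + OHT, against 6.50 and 5.28 RPKM in DMSO, and Tigar, listed as 9630033F20Rik, had 3.29 and 3.15 RPKM in DMSO + OHT, against 1.57 and 1.33 RPKM in DMSO. Trp53inp1 was lower (log2 change -0.46) and stood at the threshold without DMSO + OHT replicate 1 (limma adjusted p = 0.05). Bax was the 1 rise among 12 tested Bcl2 family genes (log2 change 0.39), and did not pass without DMSO replicate 2 (limma adjusted p = 0.10) or DMSO + OHT replicate 1 (0.12). Trp53 itself had 17.6 and 15.6 RPKM in DMSO + OHT and 15.1 and 13.1 RPKM in DMSO (0.062). The share of rises in the Bcl2 family was 8.33%, against 21.3% of all genes.

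Genes of the fibroblast state moved little. Of 37 genes of SRF-MRTF and the actin cytoskeleton 0 passed in either direction in limma or voom, against 30.2% of all genes in limma. At an unadjusted p under 0.05 there were 2, and 23 of the 37 had a mean of 20 RPKM or more, where changes may be compressed. The median log2 change was 0.01, and -0.09 under both other scalings, which called 6 and 11 lower. YAP-TEAD targets gave 2 rises among 28 (7.14%, against 21.3% of all genes, median -0.01). Of the 28, 9 had a mean of 20 RPKM or more. Among the rises was Wwc1, with 10.3 and 9.92 RPKM in DMSO + OHT, against 6.48 and 5.49 RPKM in DMSO. Without DMSO replicate 2 the rises numbered 1. The other scalings called 5 and 10 of the YAP-TEAD targets lower. Ctgf (-0.08), Cyr61 (-0.01) and Ankrd1 (-0.07) overlapped between groups, and Yap1 was among the genes left out for an unsettled decimal sign. Of the 48 extracellular matrix genes 22 had a mean of 20 RPKM or more. Of the 48, 6 were lower (12.5%, against 8.88% of all genes) and 1 higher (2.08%, against 21.3%), with a median of -0.04. Under the other scalings 11 and 21 of the matrix genes were lower. Among these Prelp, a leucine-rich proteoglycan, had 0.607 and 0.654 RPKM in DMSO + OHT, against 1.05 and 1.42 RPKM in DMSO, a call lost without DMSO replicate 2 (limma adjusted p = 0.057). Mmp14, a membrane protease, had a log2 change of -0.31, lost without DMSO replicate 1 (0.098) or DMSO + OHT replicate 2 (0.065). Without DMSO replicate 1 1 matrix gene was lower.

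Signalling genes of the TGF-beta, BMP and Wnt pathways were lower in 5 of 36 (13.9%, against 8.88% of all genes). None was higher, against 21.3% of all genes (median 0.00). The other scalings called 7 and 10 lower, with medians of -0.09 and -0.12. Sfrp2, a secreted Wnt antagonist, had 2.04 and 2.73 RPKM in DMSO + OHT and 3.55 and 3.85 RPKM in DMSO (log2 change -0.48). That call was lost without DMSO replicate 2 (limma adjusted p = 0.058) or DMSO + OHT replicate 1 (0.068), and the count was 1 without either DMSO library and 2 without either DMSO + OHT library. Growth factor receptors gave 1 rise, Ephb2 (0.45), and 2 falls, Pdgfra and Mertk (-0.52), among 23. The share of falls, 8.70%, lay near the 8.88% of all genes, and the other scalings gave 8 and 9 falls. The share of rises was 4.35%, against 21.3% of all genes. Mertk, a receptor of the TAM family, had 0.445 and 0.396 RPKM in DMSO + OHT, against 1.02 and 1.04 RPKM in DMSO. Pdgfra was also the 1 fall among 12 tested fibroblast markers, of which 3 and 7 were lower under the other scalings.

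Lysosome and autophagy genes gave 3 rises and 4 falls among 47, 6.38% and 8.51%, against 21.3% and 8.88% of all genes (median log2 change 0.02, and -0.07 and -0.08 under the other scalings, with 9 and 13 falls). The falls numbered 2 without DMSO replicate 1, and 1 gene rose when DMSO replicate 2 or DMSO + OHT replicate 1 was left out. Gusb, beta-glucuronidase, had 15.3 and 14.9 RPKM in DMSO + OHT, against 7.84 and 7.69 RPKM in DMSO. Wipi1, of autophagosome formation, had 4.33 and 3.79 RPKM in DMSO + OHT, against 6.55 and 6.32 RPKM in DMSO, and Optn, an autophagy receptor, had a log2 change of -0.47. Replication-dependent histones gave 1 rise and 3 falls among 32. The share of falls, 9.38%, lay near the 8.88% of all genes, and that of rises was 3.1%, against 21.3%. All 3 falls were in linker histones, with Hist1h1c having 16.8 and 15.1 RPKM in DMSO + OHT, against 24.4 and 21.3 RPKM in DMSO. Without DMSO + OHT replicate 1 the falls numbered 7 and without DMSO replicate 1 they numbered 1. Near-identical histone copies may share reads, so single histone genes are uncertain. Among nuclear and imprinted noncoding RNAs 2 of 13 rose (15.4%, against 21.3% of all genes). Mir17hg, the host gene of a microRNA cluster that Myc is known to induce, had 7.97 and 8.33 RPKM in DMSO + OHT, against 4.44 and 4.35 RPKM in DMSO. Pvt1 had a log2 change of 0.27, lost without DMSO replicate 2 (limma adjusted p = 0.13) or either DMSO + OHT library (0.084 and 0.093).

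Reference genes often used for scaling did not pass. Gapdh had 15.9 and 13.8 RPKM in DMSO + OHT and 15.6 and 14.1 RPKM in DMSO, and Actb had 68.4 and 56.8 RPKM in DMSO + OHT and 62.0 and 58.6 RPKM in DMSO. Both overlapped between groups, with log2 changes of -0.004 (limma adjusted p = 0.98) and 0.05 (0.82). Actb lay at a level where changes may be compressed. Eef2, Clock, Per1, Per2, Cry1, Cry2, Irf1 and B2m were named after their values were seen. For 26 of the 211 tested genes that the naming rule chose, Ncl, Cad and Rrp9 among them, the decimal sign of at least 1 of the 4 libraries was placed with the help of the closeness of libraries, which can hide a large change.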

How the data were processed

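Total RNA of 12 libraries was sequenced after a TruSeq RNA v2 preparation without poly(A) selection. According to the submitters' processing notes the authors used TopHat2 2.0.8, SAMtools, featureCounts 1.4.5-p1 and DESeq2 with genome build mm9, and they deposited RPKM values per gene, not counts. The sources used here do not say whether counting used strand, so antisense partners are not told apart. Deposited tables of the authors' own comparisons (mean levels, fold changes and p-values) were not used, nor was the second deposited RPKM table.

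In the deposited RPKM table, 46.4% of 260052 values, those of 1 or more, had lost the decimal sign. It was put back for 10945 genes from whole reads, whole gene lengths and library totals, the totals being recovered from the steps between low intact values. For 9732 of these whole reads set the sign of the 4 libraries alone, and for 1213 the closeness of libraries, replicates among them, moved at least 1 value, which can hide a large change. Another 10646 genes were intact, 50 had no annotated length, 3 no whole length and 27 a symbol turned into a date. The 139 genes with odds under 20 to 1 were left out.

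Genes that averaged 0.5 RPKM or more were tested with limma 3.58.1 in R 4.3.3, two-sided, on log2(RPKM + 1) with a mean-variance trend. The 8 libraries without verteporfin shared 1 estimate of the spread (4 residual degrees of freedom). P-values were adjusted by Benjamini-Hochberg over all genes tested, with a threshold of 0.05. Named genes were the 15 largest rises and 15 largest falls among called genes averaging 1 RPKM or more with no overlap between groups, up to 4 called members per list in its more frequent direction and up to 2 in the other, and 28 fixed genes. Some genes that this rule chose are not reported here. The members and lists were chosen with earlier results of these data known. The procedures were tested on simulated data. There the sign of 8-fold falls was restored wrongly more often than that of 8-fold rises, and small falls were called less often than small rises. Alternatives were other pseudocounts, filters and scalings, voom on restored reads, fewer libraries, the replicate block, whole reads alone for the sign and leaving out each library. Keeping the unsettled genes and leaving out short RNA genes were added after seeing the data. Promoter windows came from RefSeq on GRCm38.p6, and no coordinates were taken from the deposited table.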

Additional observations from a re-analysis of the deposited data

Results flagged for a closer look

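Of the 211 tested genes that the naming rule chose, 3 had a response to OHT in DMSO that differed from their response to OHT in Y27 by the interaction term of the same limma fit, and 16 of all 10941 genes did so. Y27 (Y27632) is a kinase inhibitor, and the comparison was read for the named genes only.

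For Ackr4 the log2 change was -0.96 in DMSO and -0.15 in Y27, a difference of -0.81 (limma adjusted p = 0.033). Ackr4 had 0.335 and 0.316 RPKM in Y27 + OHT and 0.460 and 0.477 RPKM in Y27, so that in Y27 it was low in both groups, where the log2(RPKM + 1) scale understates change. The difference did not pass without DMSO replicate 1 (0.16), with pseudocounts of 0.1 (0.20) or 0.5 (0.076), with whole reads alone setting the sign (0.052), with no filter (0.20) or with voom (0.35).

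Mthfd1, a cytosolic enzyme of folate metabolism, had 17.2 and 15.6 RPKM in DMSO + OHT, against 8.46 and 7.94 RPKM in DMSO, and 12.6 and 11.98 RPKM in Y27 + OHT, against 2.75 and 2.93 RPKM in Y27. Its log2 change was 0.92 in DMSO and 1.79 in Y27, a difference of -0.87 (limma adjusted p = 0.0052), which passed under every alternative that could be run for it. The decimal sign of this gene was set with the help of the closeness of libraries, and no value could be had from whole reads alone.

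For Egr1 the log2 change was -0.71 in DMSO and 0.38 in Y27, a difference of -1.09 (limma adjusted p = 0.0079). Egr1 had 2.95 and 3.02 RPKM in Y27 + OHT, against 1.86 and 2.27 RPKM in Y27. The difference did not pass without DMSO replicate 1 (0.066) or with no filter (0.16).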

How the results depend on the processing

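The counts of 3305 called, 2333 higher and 972 lower genes stayed within 1.5 times under other pseudocounts and filters, voom, 4 libraries only and whole reads alone, with 2660 to 3735 called, while the scalings gave 1915 and 2274 lower genes and shares of rises of 49.0% and 48.3%. Whole reads alone left 8961 genes to test, 20.2% of them higher, and fewer members per list. Rises were then 5 of 8 for polymerase I, 26 of 29 for the processome, 28 of 31 for large subunit assembly and 13 of 15 for Myc target readouts, each the number called among the same members otherwise. Synthetases gave 1 of 8, since 9 of their 10 rises were among the members not tested. Leaving out 1 library gave 1738 to 3051 called, 1172 to 2233 higher and 472 to 818 lower genes, and shares of rises of 67.4% to 81.7%, the last without DMSO replicate 1. Of 195 called named genes, 31 lost the call under at least 1 alternative other than a left-out library and 53 without at least 1 library, and 0 of the 211 tested changed direction past the threshold. The number of named genes whose response differed between DMSO and Y27 was 3, against 1 with no filter or with whole reads alone, 7 with median-ratio scaling, 8 with a pseudocount of 0.1, 11 with quantile normalization or without short RNA genes, 19 with voom and 1 to 9 without 1 library. It could not be computed from 4 libraries only. With the replicate block 2298 genes were higher and 960 lower. Same-numbered libraries had deviations that correlated at 0.28 between DMSO and DMSO + OHT and at -0.15 to 0.07 between the other pairs of groups. Whether same-numbered libraries were handled together is not known, and the main fit did not pair them. The cause of these differences was not tested. With 2 libraries per group, small changes and genes near 0.5 RPKM are the least certain, and changes in total RNA per cell could not be seen.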
